A study of Mus musculus with 8 samples.

Results

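The regions described here are stretches of mouse mRNA that carried an N6-methyladenosine (m6A) peak in every one of 4 immunoprecipitation libraries and whose enrichment did not move in a fixed direction when mouse embryonic fibroblasts (MEFs) were starved. They were chosen by the peak lists themselves. Peaks of the 4 lists that shared at least 1 bp were merged into 21168 regions, of which 2257 (10.7%) held a peak in all 4 lists and are called constitutive. For each list the highest fold enrichment in the region was taken, that is, the ratio of immunoprecipitated signal to input at the peak. Regions in which both starved values lay above both control values (516, 22.9% of the constitutive regions) or below them (407, 18%) are called ordered and were set aside. The remaining 1334 unordered constitutive regions, 6.3% of all merged regions, lay in 1206 genes and are the subject of the report.

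The cells were wild-type C57BL/6 MEFs, primary fibroblasts taken from embryos at day 13.5 and used at passage 5 to 6. Control MEFs stayed in full medium, and starved MEFs spent 2 h in nutrient-deprived medium before RNA was taken. Each group had 2 replicates, each with an IP library made with an anti-m6A antibody and an input library made without it, 8 samples in all, and the study asked how starvation changes m6A on mRNA. The 4 IP lists held between 8974 and 10103 peaks, called by the authors against the matching input. Their files give no read counts, so the depth of each library is unknown. The labels do not say whether the replicates were separate cultures, and the study calls them biological replicates.

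m6A is the most common internal mark of mammalian mRNA. A writer complex built around METTL3 and METTL14 places it on adenosines, mostly in the context GGAC and its close relatives, while FTO and ALKBH5 remove it and YTH-domain proteins read it. In mammalian mRNA the mark is known to gather near stop codons and in long internal exons, and short exons in the coding sequence are largely spared. MeRIP-seq, the method used here, pulls down RNA fragments and so gives a window around the mark, not a single methylated base.

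The sequences below were read from the mouse genome (RefSeq assembly GRCm38, the build of the peak lists) on the transcribed strand, 5′ to 3′. Each shows the GGAC nearest to the median peak centre of a region, with every GGAC in capitals. A GGAC inside a region is a match of letters and was not itself measured. The first set belongs to 8 of the 12 regions with the highest enrichment and is shown because these are the strongest peaks found in both states. Windows wholly in coding sequence are 100 bases long, and windows elsewhere are 30.
A630007B06Rik, chr19:56813438-56813537, minus strand: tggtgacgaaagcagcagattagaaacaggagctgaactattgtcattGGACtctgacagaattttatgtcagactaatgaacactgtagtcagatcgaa
Eif3a, chr19:60763138-60763237, minus strand: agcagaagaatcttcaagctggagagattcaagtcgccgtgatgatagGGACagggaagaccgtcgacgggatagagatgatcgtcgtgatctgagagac
Cwc27, chr13:104631627-104631726, minus strand: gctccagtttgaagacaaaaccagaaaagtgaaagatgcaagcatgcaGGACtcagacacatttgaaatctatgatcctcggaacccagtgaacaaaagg
Zc3h13, chr14:75331920-75332019, plus strand: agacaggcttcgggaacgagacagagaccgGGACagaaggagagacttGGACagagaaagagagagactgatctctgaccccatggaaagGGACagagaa
Cant1, chr11:118411013-118411112, minus strand: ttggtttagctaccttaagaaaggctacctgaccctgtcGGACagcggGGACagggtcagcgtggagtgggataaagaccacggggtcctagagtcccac
Clip2, chr5:134503009-134503108, minus strand: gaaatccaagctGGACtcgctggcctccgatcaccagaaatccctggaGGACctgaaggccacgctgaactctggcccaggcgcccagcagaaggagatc
Fbxw7, chr3:84903744-84903843, plus strand: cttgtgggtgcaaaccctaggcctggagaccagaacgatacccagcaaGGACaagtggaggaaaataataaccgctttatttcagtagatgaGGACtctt
Wdr60, chr12:116256099-116256198, minus strand: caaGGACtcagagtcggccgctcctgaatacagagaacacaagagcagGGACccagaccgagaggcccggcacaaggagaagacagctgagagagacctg
The second set belongs to the regions in which the 4 libraries gave the most similar values, shown because their values were the steadiest across both states. In Gpr176 the strongest peaks of the 4 lists had no base in common. The window from Lats2 and the window from Slc35b4 lie in the 3′ UTR and are cut to 30 bases.
Aff4, chr11:53372494-53372593, plus strand: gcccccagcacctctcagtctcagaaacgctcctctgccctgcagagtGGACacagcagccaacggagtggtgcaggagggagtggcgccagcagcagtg
Eif5b, chr1:38036078-38036177, plus strand: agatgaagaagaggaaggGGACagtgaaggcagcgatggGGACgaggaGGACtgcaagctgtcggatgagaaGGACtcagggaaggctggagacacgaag
Gpr176, chr2:118279442-118279541, minus strand: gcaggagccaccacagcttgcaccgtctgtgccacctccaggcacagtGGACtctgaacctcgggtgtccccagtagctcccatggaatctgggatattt
Lats2, chr14:57690877-57690906, minus strand: gctcaagtcacgaGGACcgcttatctacac
Slc35b4, chr6:34157484-34157513, minus strand: acacacttccatgGGACtcctgtgggtttc
The third set comes from genes with several regions, where neighbouring peaks of one mRNA can be set side by side.
Eif3a, chr19:60764082-60764181, minus strand: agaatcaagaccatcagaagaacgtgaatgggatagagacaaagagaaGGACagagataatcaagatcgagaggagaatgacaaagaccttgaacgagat
Eif3a, chr19:60766631-60766730, minus strand: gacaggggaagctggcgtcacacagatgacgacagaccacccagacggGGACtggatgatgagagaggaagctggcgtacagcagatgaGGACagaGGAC
Zc3h13, chr14:75323417-75323516, plus strand: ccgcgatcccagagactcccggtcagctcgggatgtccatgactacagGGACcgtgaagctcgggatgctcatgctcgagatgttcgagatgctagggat
Spen, chr4:141479050-141479149, minus strand: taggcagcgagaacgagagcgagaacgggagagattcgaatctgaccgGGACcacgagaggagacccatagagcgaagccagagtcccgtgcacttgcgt
Spen, chr4:141472881-141472980, minus strand: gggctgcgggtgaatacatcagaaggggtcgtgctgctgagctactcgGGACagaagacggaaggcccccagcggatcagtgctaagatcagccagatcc
The windows printed from Zc3h13 (3 copies of GGAC at the strongest region), Eif5b (4) and the region of Eif3a at chr19:60766334-60766995 (3) held the motif several times within 100 bases. In Wee1, 1 of the 12 strongest regions, no GGAC lay within the region on the transcript used. The same held for the regions of Eif3a at chr19:60772692-60773039 and of Zfp451 at chr1:33799909-33800712.

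Across the 1334 unordered regions the geometric mean of the 4 fold enrichments had a median of 17.3 (quartiles 11.1 and 33.0) and ran from 3.25 to 1631. In control replicates 1 and 2 the median fold was 18.7 and 16.8, and in starved replicates 1 and 2 it was 19.2 and 19.2. The 4 libraries therefore lay within a narrow band as sets. These values chose the regions, so they are given as a description and no test was run on them. The lowest of the 4 values was at least 5 in 1083 regions (81.2%), at least 10 in 591 (44.3%) and at least 100 in 48 (3.60%).

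Single regions varied more than the medians. The ratio of the highest to the lowest of the 4 values had a median of 3.42, was at most 2 in 216 regions (16.2%) and was above 10 in the 92 regions outside the 1242 (93.1%) at or under it. Between the 2 control replicates the median absolute log2 difference in fold was 0.91, and between the 2 starved replicates it was 1.18. Pearson's r of log2 fold across the 1334 regions was 0.64 for the control pair, 0.44 for the starved pair and 0.67 to 0.70 for the 4 pairs of a control and a starved library. The rule used here keeps regions whose groups interleave and so favours differences inside a group over differences between groups, which bears on all of these values. Regions are not independent replicates, and all pairs share the peak caller. The highest value lay in starved replicate 1 in 386 regions and in control replicate 2 in 249, the extremes over the libraries, and the lowest lay in starved replicate 2 in 392 and in control replicate 1 in 274.

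**Figure D1:**
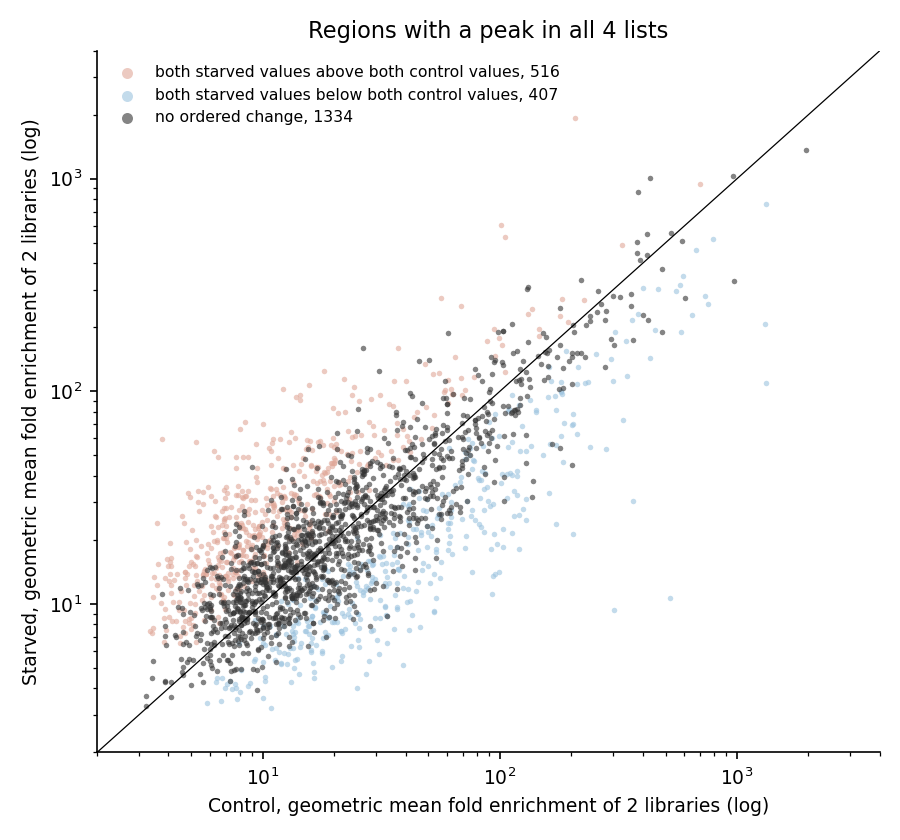
Each point is 1 of the 2257 constitutive regions, placed by the geometric mean fold enrichment of the 2 control libraries (x axis, log scale) and of the 2 starved libraries (y axis, log scale), with the line of equality. The 1334 unordered regions (dark) lie around the line between the 516 regions with both starved values above (red) and the 407 with both below (blue), a separation that the rule itself makes.

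The mean starved log2 fold exceeded the mean control log2 fold by a median of 0.04 (quartiles -0.38 and 0.45), and 875 regions (65.6%) were within 1.5-fold between group means. The threshold between the classes is a matter of small differences. The 3 unordered regions nearest to it were in Pcdh19 (control 9.89 and 16.7, starved 16.7 and 30.8), Fbln5 (control 4.14 and 5.85, starved 5.85 and 14.3) and Setdb1 (control 27.5 and 35.6, starved 35.6 and 53.0). In Pcdh19 and Fbln5 a starved value equalled a control value, and a tie does not count as above. The 3 ordered regions nearest to it were in Plec (control 77.5 and 117.4, starved 117.4 and 184.9), Mis12 (control 12.8 and 8.60, starved 12.8 and 28.4) and Btbd7 (control 11.1 and 6.48, starved 11.2 and 25.4). In these the lowest starved value exceeded the highest control value by 0.0006, 0.0034 and 0.0065 on the log2 scale.

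The strongest region lay in coding sequence of A630007B06Rik at chr19:56812995-56813689, with folds of 3188 and 1195 in control MEFs and 1634 and 1138 after starvation. Control replicate 1 stood highest and the other 3 libraries lay below it within a smaller span. Eif3a, which encodes the largest subunit of the translation initiation factor eIF3, held the next region at chr19:60763065-60763264. Its folds were 884 and 1044 in control MEFs and 1023 and 1046 after starvation, so that the highest was 1.18 times the lowest. It was the only region to enter both the list of the 12 strongest and the list of the 6 steadiest.

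Zc3h13, a subunit of the m6A writer complex itself, carried its strongest region at chr14:75331706-75332218 in coding sequence. The folds were 784 and 435 in control MEFs and 724 and 358 after starvation, with both replicates 2 below both replicates 1. Fbxw7, the substrate receptor of an SCF ubiquitin ligase that directs Myc and cyclin E to degradation, had a coding region at chr3:84903501-84904079. There the control values were 544 and 263 and the starved values 540 and 475. Wee1, the kinase that holds Cdk1 inactive before mitosis, had its region at the stop codon (chr7:110141956-110142434), with 460 and 378 in control MEFs and 363 and 532 after starvation.

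Cant1, a calcium-activated nucleotidase, reached 653 and 422 in control MEFs and 492 and 628 after starvation. Clip2, a linker protein of microtubules, reached 598 and 293 against 770 and 391. Wdr60, a dynein-2 intermediate chain of cilia, gave 818 and 175 against 684 and 293, a ratio of 4.68 between highest and lowest. Pdzrn3, a RING ubiquitin ligase with PDZ domains, had the only one of the 12 regions centred in a 3′ UTR, with 738 and 315 against 397 and 359. In Cwc27, a cyclophilin of the spliceosome, the peak at the stop codon ran from 139 in starved replicate 1 to 1651 in control replicate 2, with 569 and 791 in the other libraries, so this strong region was also among the least reproducible.

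The other 2 of the 12, Gm10800 and Gm10801, are predicted genes next to each other on chromosome 2. Their central 200 bp matched the genome at 34 and 21 places (at least 95% identity over at least 90% of the length), so reads there cannot be tied to a single locus and their values, 269 to 1765 and 198 to 3535, are uncertain. In all, 114 of the 1334 regions (8.55%) had another copy, 6 of them with 10 or more. Among the regions described singly, those of Gvin1, Mki67, Kifc5b, Ttc30a2, the stop codon region of Eif3a and 1 region of Wtap, Klf4 and Rnf111 each also had another copy.

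**Figure D2:**
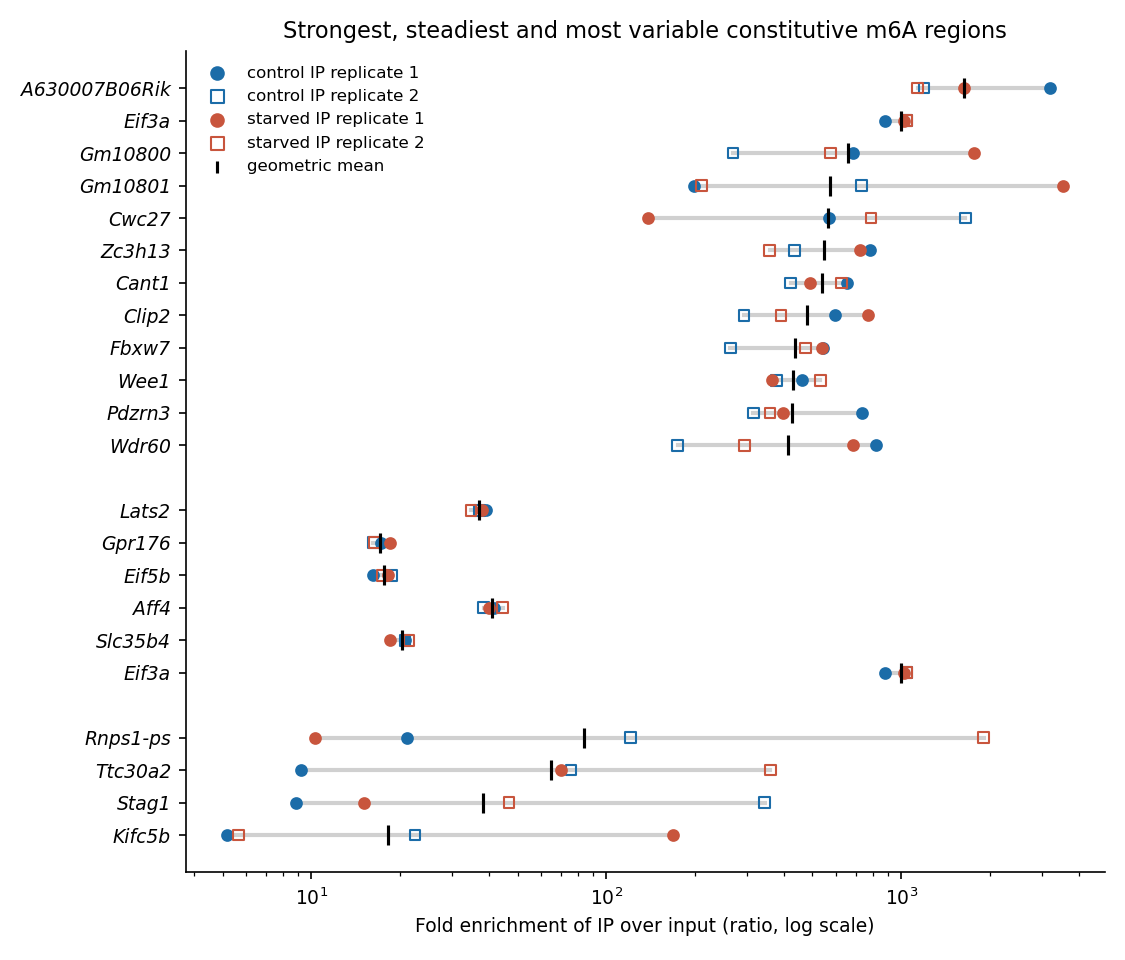
Fold enrichment of IP over input (x axis, log scale) in each of the 4 libraries for the 12 strongest regions (top), the 6 with the smallest ratio of highest to lowest value among those with a geometric mean of at least 10 (middle) and the 4 with the largest ratio (bottom). Filled circles are replicates 1 and open squares replicates 2, and the bar marks the geometric mean. The steadiest regions span at most 1.18-fold and the region of Rnps1-ps spans 184-fold.

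Outside Eif3a, the steadiest regions were moderate in strength. Lats2, a kinase of the Hippo pathway, gave 39.0 and 37.2 in control MEFs and 37.8 and 34.7 after starvation over a 3′ UTR region of 1539 bp. Aff4, a scaffold of the super elongation complex of transcription, gave 41.7 and 38.4 against 40.1 and 44.6. Eif5b, which joins the ribosomal subunits at initiation, gave 16.2 and 18.7 against 18.2 and 17.4. For Gpr176, an orphan receptor, and Slc35b4, a nucleotide sugar transporter, the values ran from 16.2 to 18.4 and from 18.5 to 21.4. In all of these the starved and control values overlapped within a ratio of 1.16. The strongest peaks of the 4 lists had no base in common in Gpr176, so its similar values come from different places in the region.

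At the other end, Rnps1-ps, a pseudogene, gave 21.1 and 121 in control MEFs and 10.3 and 1902 after starvation. Stag1, a cohesin subunit, ran from 8.85 to 344 between the 2 control replicates alone. Ttc30a2, an intraflagellar transport gene, ran from 9.22 in control replicate 1 to 360 in starved replicate 2, and the kinesin gene Kifc5b from 5.19 to 168. These 4 regions count as unordered because their starved and control values overlapped. In Ttc30a2 the margin was narrow, with 70.2 in starved replicate 1 and 75.9 in control replicate 2.

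The regions were broad. Their merged width had a median of 883 bp (quartiles 547 and 1383) and ran from 200 to 6836 bp, and 1047 of them (78.5%) were made of exactly 1 peak per list. The widest lay in Mki67, the proliferation marker Ki-67, where 11 peaks covered 6836 bp of a single exon at chr7:135694232-135701067 with folds of 36.3, 32.9, 48.5 and 17.2. A region of Dst, a giant linker of the cytoskeleton, took 5276 bp and 13 peaks at chr1:34187988-34193263. A shared base under the strongest peak of every list existed in 1130 regions (84.7%), and in the other 204, Mki67 and Dst included, the 4 lists had their strongest peaks at different places in a common stretch. Among 1270 regions whose 4 peaks fell on the same transcript, the centres lay within 200 nt of each other in 671 (52.8%).

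Many regions began or ended where an exon does. Of the 1315 regions that could be placed on a coding transcript, 297 (22.6%) began and ended exactly at the ends of the exon that holds their centre, and a further 609 (46.3%) shared 1 end with it. These whole-exon regions covered exons of 200 to 6836 nt with a median of 513 nt. In the deposited lists, 11.6% to 13.0% of the placed peaks spanned a whole exon in this way, and the shortest peak in every list was 200 bp. A peak can thus end with an exon, and peaks in neighbouring exons stay apart on the genome even where they touch on the mRNA.

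This mattered for genes with several regions. Of the 1206 genes, 1104 had 1 unordered region, 82 had 2, 15 had 3, 4 had 4 and Eif3a had 5. The 102 genes with more than 1 held 230 regions, and their transcripts had a median length of 6676 nt against 4151 nt for genes with 1. Of 113 neighbouring pairs on a common transcript, 16 pairs in 14 genes touched on the mRNA without a gap, 28 were 1 to 500 nt apart and 69 further, up to 10522 nt. Within a gene the geometric means of neighbouring regions differed by a median of 1.03 on the log2 scale, near the 1.11 over all pairs of unordered regions, so that regions of the same mRNA were about as unlike in strength as regions of different mRNAs.

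Eif3a shows this most plainly. Of its 5 regions, 4 lay end to end on the mRNA from nt 2874 to nt 4512, and 3 of these 4 each filled an exon exactly. Their geometric means along the mRNA were 29.98, 262, 997 and 78.3, so that the summit of the stretch sat on an exon of 200 nt near the end of the coding sequence, whose sequence is printed above beside those of 2 weaker neighbours. The fifth region, at nt 1756 to 2103, filled another exon and had a geometric mean of 62.3. At chr19:60764032-60764233, the region of 262, the values were again close together, 230 and 310 in control MEFs and 240 and 276 after starvation.

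Zc3h13 had 3 unordered regions with geometric means of 33.8, 545 and 16.3 and, between the first and the second along its mRNA, an ordered region that was higher after starvation (63.1). The 3′ UTR region was loosely measured, from 4.55 in starved replicate 2 to 47.0 in starved replicate 1. Spen, a large transcriptional repressor that acts in X inactivation, carried 4 regions in its coding sequence. The strongest, at chr4:141478686-141479389, gave 53.8 and 199 in control MEFs and 178 and 209 after starvation, and the one nearest the stop codon, at chr4:141472528-141473587, gave 84.5 and 96.4 against 125.3 and 77.9. The remaining regions of Spen had geometric means of 22.9 and 20.04.

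Dst had 4 unordered regions of similar strength, with geometric means between 14.0 and 22.1, spread from nt 5242 to nt 18753 of its mRNA, and an ordered region (14.8) among them. Zfp451, a zinc finger protein that acts as a SUMO ligase, had 4 regions with geometric means of 39.0, 14.9, 14.7 and 8.58. Gvin1, an interferon-inducible GTPase, was listed with 4 regions, but these lie on 2 annotated transcripts of chromosome 7 and each matched the genome at 2 to 7 places, so they cannot be assigned to one locus. In all 4 of them starved replicate 1 was the highest. In the regions of 1388 bp it gave 191 and 169, where the other libraries gave 6.83 to 15.4. In the wider regions it gave 152 and 142, against 96.4 and 66.0 in control replicate 2.

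**Figure D3:**
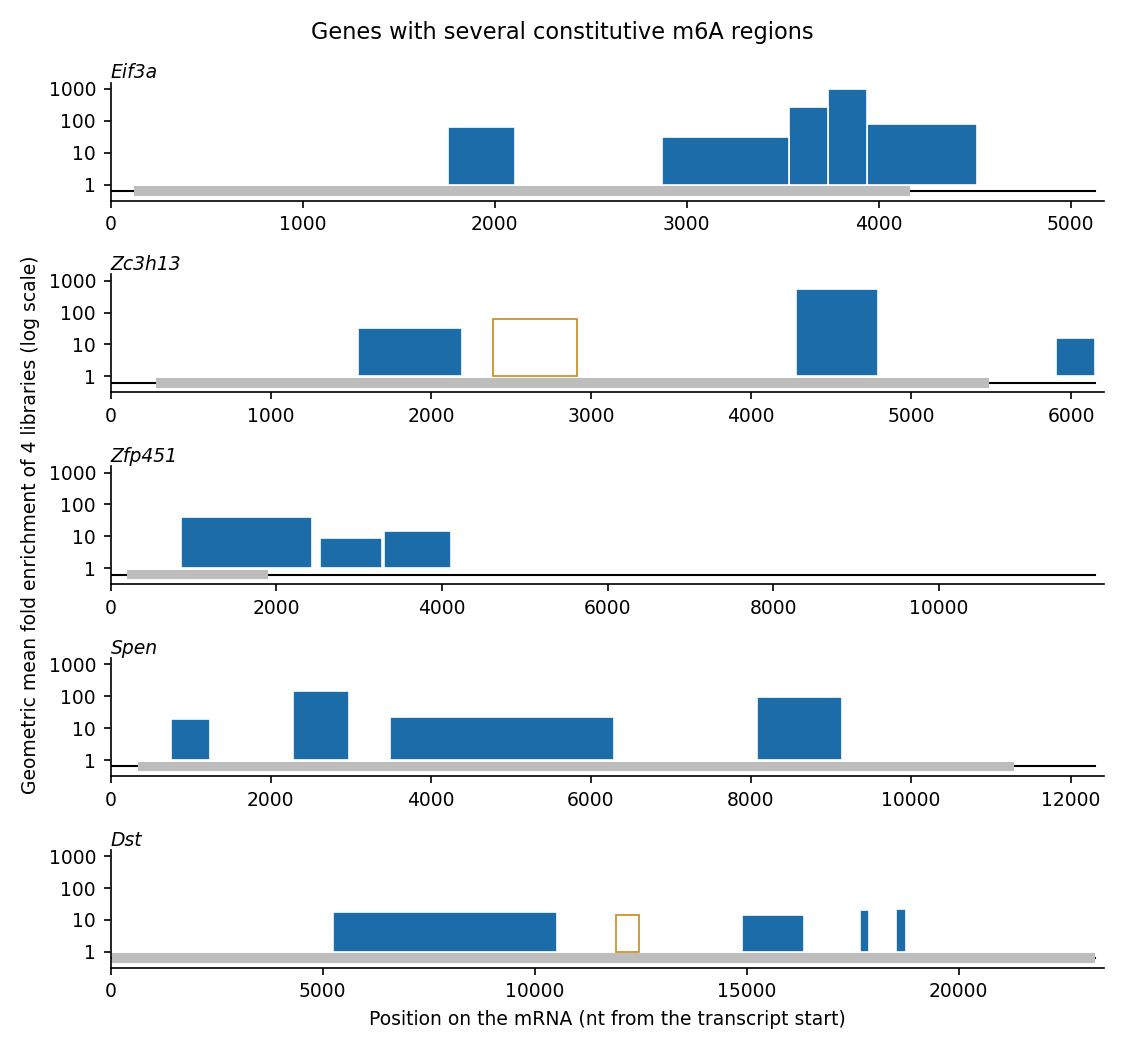
Transcript maps of 5 genes with several regions, drawn along the mRNA (x axis, nt from the transcript start) with the coding sequence in grey. Blue blocks are unordered constitutive regions and open blocks ordered ones, and their height is the geometric mean fold enrichment of the 4 libraries (y axis, log scale). In Eif3a 4 blocks touch, with the tallest at 997, and 1 region of Zfp451 that lies on another transcript is not drawn.

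Constitutive methylation was shared with other sites in many of these mRNAs. Of the 1206 genes, 149 (12.4%) also had an ordered region, higher after starvation in 87 and lower in 69, and 918 (76.1%) also had a region called in only 1 to 3 lists. A gene can thus hold unordered and ordered regions at once. The matching shares over all genes with a peak are not given, so these counts describe the 1206 genes and do not set them apart.

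By position, 725 of the 1315 placed regions (55.1%, 95% Wilson interval 52.4 to 57.8) had their centre in coding sequence, 395 (30.04%, 27.6 to 32.6) in the 3′ UTR, 153 (11.6%, 10.0 to 13.5) within 100 nt of the stop codon and 42 (3.19%, 2.37 to 4.29) in the 5′ UTR. In the transcripts concerned these parts make up 51.8%, 38.3%, 4.06% and 5.87% of the length, so the stop codon window held more regions than its length and the 3′ UTR and 5′ UTR fewer. The intervals cover counting of regions only. Wherever a region is assigned to a segment, this refers to its centre, and a wide region can reach into the next segment.

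**Figure D4:**
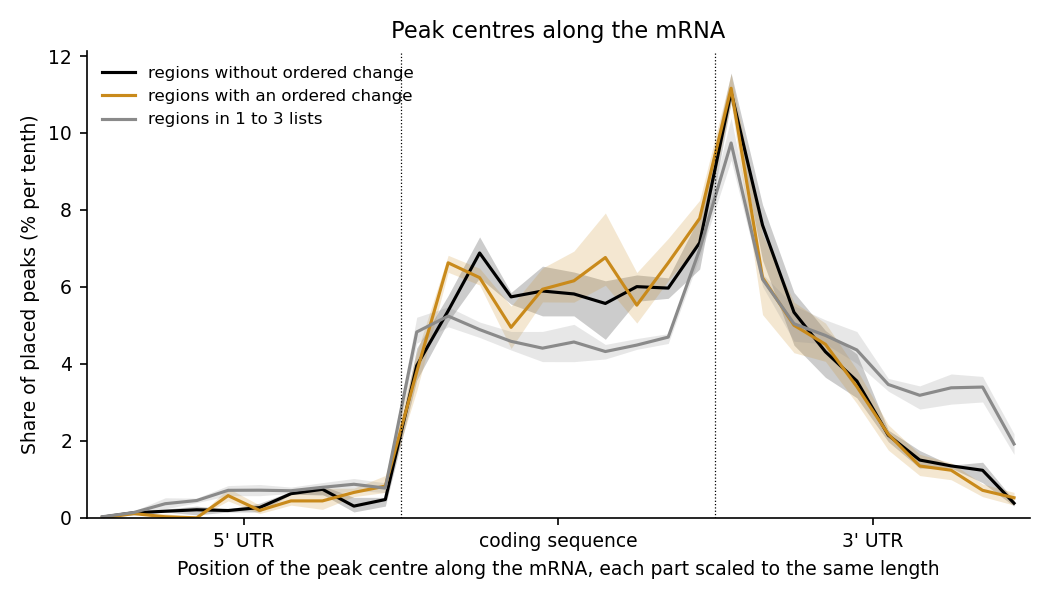
Share of placed peaks in 10 equal bins of the 5′ UTR, coding sequence and 3′ UTR, each scaled to the same length (x axis), for unordered constitutive regions, ordered ones and regions in 1 to 3 lists (y axis, percent per bin). Lines are means and bands the range of the 4 libraries. All 3 classes peak in the first bin of the 3′ UTR, at 11.1% of the placed peaks of the unordered regions.

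Strength and position went together. In the weakest quartile of unordered regions (geometric mean up to 11.1), 39.8% lay in coding sequence (95% Wilson interval 34.6 to 45.1) and 42.8% in the 3′ UTR (37.6 to 48.1). In the strongest quartile (from 33.0), 71.2% lay in coding sequence (66.0 to 75.9) and 14.9% in the 3′ UTR (11.4 to 19.2), and the quartiles between gave 49.4% and 60.6% coding. The share at the stop codon was 13.9% in the weakest quartile and 12.4% in the strongest, with overlapping intervals. The same gradient stood in the 923 ordered regions, whose coding share rose from 42.4% (36.1 to 48.8) in their weakest quartile to 66.1% (59.6 to 72.0) in their strongest, so it is not particular to the unordered set. Median geometric means were 20.8 in coding sequence, 16.9 at the stop codon, 14.1 in the 5′ UTR and 13.8 in the 3′ UTR.

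Most regions lay in long exons. Of the placed regions, 1154 (87.8%) were centred in exons of at least 400 nt, which make up 69.4% of the length of these transcripts, and 774 (58.9%) in the last exon, which makes up 50.8%. Away from the last exon, 388 of 541 regions (71.7%) still lay in exons of at least 400 nt, where such exons hold 38.4% of the length, and the median exon there was 700 nt long. As peaks in these lists are at least 200 bp and often end at exon boundaries, short exons have less room for a peak. The part this plays in the share was not tested.

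GGAC stood in the 200 nt around the peak centre, on the transcribed strand of the spliced mRNA, in 65.9% ± 0.85 of the peaks of unordered regions (SD over 4 libraries). In the control libraries the share was 64.7% and 66.2%, and in the starved libraries 65.9% and 66.7%, in the order of the replicates. In 13756 windows of the same length and the same transcripts that no peak touched, it was 49.9% (95% Wilson interval 49.0 to 50.7). The longer GGACT was found in 27.8% ± 1.011 of peaks against 16.7% of the peak-free windows. GGAC density was 5.97 per 1000 nt in the bin of 50 nt centred at -25 nt from the peak centre. It was 4.61 per 1000 nt in the bin centred 475 nt before the peak centre and 3.93 in the bin centred 475 nt after it.

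The share with GGAC went from 63.0% ± 2.34 (SD, n = 4 libraries) in the weakest quartile of regions through 65.0% ± 3.66 and 65.9% ± 1.49 to 69.7% ± 0.77 in the strongest, and it was 78.9% ± 2.87 in the 45 placed regions of the 48 whose 4 folds all reached 100. Where the 4 peak centres lay within 200 nt it was 69.3% ± 0.77, and where they were further apart 62.1% ± 2.82. By segment it was 73.8% ± 3.37 in the 5′ UTR, 67.3% ± 2.82 at the stop codon, 67.0% ± 1.61 in coding sequence and 62.4% ± 1.554 in the 3′ UTR. These shares describe the regions and were not tested.

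**Figure D5:**
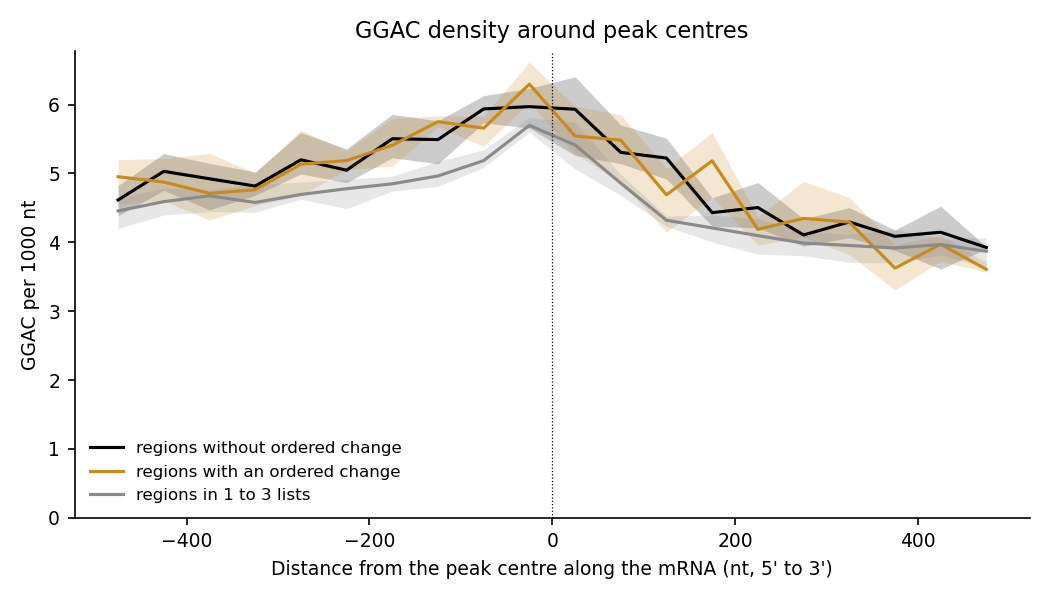
Density of GGAC (y axis, matches per 1000 nt of spliced mRNA) by distance from the peak centre (x axis, nt, 5′ to 3′) for unordered constitutive regions, ordered ones and regions in 1 to 3 lists. Lines are means and bands the range of the 4 libraries in bins of 50 nt. The density of the unordered regions is highest around the centre, at 5.97, and falls towards 4.61 on the 5′ side and 3.93 on the 3′ side.

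Sequence, position and exon length were not used to choose the regions, so these could be compared between states and between classes, in 9 tests in all with Benjamini-Hochberg adjustment. Between starved and control libraries the share with GGAC differed by 0.84 percentage points (66.3% against 65.5%, exact permutation over libraries, two-sided p = 0.667, adjusted 0.964). For the share at the stop codon the difference was again 0.84 points (11.6% against 10.8%, exact permutation p = 0.333, adjusted 0.6), with both starved libraries above both control libraries. The peak centres of a starved and a control library were a median of 73.8 nt apart and those of 2 libraries of the same group 73.0 nt (exact permutation p = 1, adjusted 1). With 2 libraries per group the smallest p is 0.333, so none of these could pass 0.05. The difference in GGAC changed sign without control replicate 1 (-1.08 points) or starved replicate 2 (-0.061), that at the stop codon without starved replicate 2 (-1.09), and that in offset without control replicate 1 (-1 nt). The GGAC difference was 0.18 points with peaks under a false discovery rate of 20% and 1.48 in a window of 100 nt, and the stop codon difference was 0.19 in a window of 200 nt on either side.

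Set against the 923 ordered regions in the same 4 libraries, the unordered ones had GGAC in 0.35 points more of their peaks (65.9% against 65.5%, higher in 2 of 4 libraries, exact sign-flip permutation p = 0.875, adjusted 0.984). Their share at the stop codon was 1.62 ± 1.08 points lower (SD; 11.2% against 12.8%, lower in 4 of 4 libraries, exact p = 0.125, adjusted 0.281), and their share in exons of at least 400 nt 0.80 ± 0.08 points higher (87.7% against 86.9%, 4 of 4 libraries, exact p = 0.125, adjusted 0.281). Log2 peak width differed by -0.0028 ± 0.032 (9.08 in both, lower in 3 of 4 libraries, exact p = 0.75, adjusted 0.964). The smallest p over 4 libraries is 0.125, so no difference could pass 0.05. All 4 libraries score the same regions, and the long exon share of the unordered ones hardly differed between them (87.6% to 87.8%). Agreement in 4 of 4 libraries and the SD thus measure the spread between lists, not the sampling of regions. The difference at the stop codon changed sign without control replicate 2 or starved replicate 2 (1.40 and 0.40 points), that in long exons without control replicate 1 or starved replicate 2 (-0.43 and -1.67), that in GGAC without control replicate 2, starved replicate 1 or starved replicate 2 (-0.89, -0.12 and -1.63), and that in width without control replicate 1 or starved replicate 1 (0.027 and 0.013). The size of these differences also depended on the setting. With peaks under a false discovery rate of 20% the GGAC difference was 3.67 points (exact p = 0.125), with folds divided by the library median 1.43, and at a fold of at least 4 it was 0.072. The long exon difference was 0.0086 points for exons of at least 1000 nt (exact p = 1), 0.21 with lists of equal length and 2.45 under a false discovery rate of 20%, and the stop codon difference was -0.59 with folds divided by the library median. The ordered set was itself mixed. In its regions higher after starvation 67.1% to 70.1% of peaks per library held GGAC, in those lower after starvation 58.8% to 64.1%, and the unordered regions, at 64.7% to 66.7%, lay between them in mean.

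Regions in 1 to 3 lists had GGAC in 63.1% of peaks, 2.82 ± 0.72 points below the unordered regions (4 of 4 libraries, exact p = 0.125, adjusted 0.281), and 12.9% at the stop codon, 1.68 ± 0.70 points above them (4 of 4 libraries, exact p = 0.125, adjusted 0.281), a difference that also changed sign without control replicate 2 (0.14) or starved replicate 2 (1.47). Their peaks were narrower, with a median of 339 to 356 bp per library against 510 to 590 bp, and weaker, with median folds of 11.1 to 13.5 against 16.8 to 19.2. Width and fold bear on whether a peak is called in every list, so these are descriptions. Among the unordered regions the share with GGAC also went up with fold, from 63.0% in the weakest quartile to 69.7% in the strongest. The difference in GGAC to regions in 1 to 3 lists therefore cannot be told apart from one in strength, and regions of matched strength were not compared.

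The genes concerned were read by function against lists of known members of each pathway. Over all 9778 genes with a peak in any list, 12.3% had an unordered constitutive region, and the shares below stand beside that background as descriptions, with no test.

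The m6A machinery was itself methylated. Of 17 genes of writers, erasers and readers with a peak, 6 had unordered regions: Zc3h13, Wtap, Rbm15 and Rbm15b of the writer complex, the eraser Alkbh5 and the reader Igf2bp2. Beyond the Zc3h13 regions, Igf2bp2 gave 53.0 and 23.8 in control MEFs and 34.6 and 5.88 after starvation at its 3′ UTR, and Rbm15 17.0 and 13.9 against 34.4 and 8.74 in coding sequence. Alkbh5 was lower and more even, at 8.10 and 6.31 against 7.69 and 13.6, but its strongest peaks in the 4 lists had no base in common. A further 5 genes (Fto, Hnrnpc, Virma, Ythdc1 and Ythdf3) had only ordered constitutive regions, and 6 had only regions in 1 to 3 lists. No peak was listed for Igf2bp3, Mettl3 or Ythdc2.

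Chromatin regulators had 29 regions in 21 of 52 genes with a peak (40.4%), with a median geometric mean of 16.7. Chd1, a remodeler that follows transcription, led with 89.0 and 151.4 in control MEFs and 49.0 and 137 after starvation at its stop codon. Ash1l, a histone methyltransferase, had 3 regions in its exon of 4558 nt, and the strongest gave 92.6 and 55.7 against 61.2 and 42.5. Nsd1, a methyltransferase of histone H3, and Bptf, the large subunit of the NURF remodeler, had 2 each, with geometric means of 41.4 and 14.5 and of 41.1 and 31.5. The regions of Bptf touch on the mRNA, and the weaker was the steadier, at 32.6 and 31.3 against 36.7 and 26.4.

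Ubiquitin ligase genes had 16 regions in 12 of 37 genes (32.4%). Next to Fbxw7, Fbxo11, an F-box protein, ran from 27.4 in starved replicate 2 to 146 in control replicate 1. Huwe1, a giant HECT ligase, had 3 regions, the strongest at 52.2 and 87.8 against 11.8 and 61.8. Mdm2, the ligase of p53, was lower and even at 11.03 and 9.75 against 15.1 and 9.28.

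In the core autophagy list 6 of 34 genes with a peak (17.6%) had 8 unordered regions. Optn, a selective autophagy receptor, was the strongest with 96.1 and 267 in control MEFs and 78.7 and 172 after starvation on an exon of 203 nt. Uvrag, a subunit of the class III PI3-kinase complex, gave 35.6 and 105 against 40.2 and 58.4 in its 5′ UTR. Rb1cc1, which encodes the ULK1 complex subunit FIP200, gave 37.9 and 28.0 against 24.3 and 48.0 over a whole exon of 1892 nt. Foxo3, a transcription factor that drives autophagy genes, had a 3′ UTR region (26.2 and 17.7 against 16.3 and 41.8) and a region in coding sequence centred at -246 nt from the stop codon (8.09 and 19.6 against 15.5 and 28.3). The 3′ UTR region was centred 2880 nt after the stop codon. The rule keeps only regions whose starved and control values overlap, so their overlap in Foxo3 is no result about starvation.

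Of the nutrient-sensing genes of mTORC1, GATOR and AMPK, 3 of 29 with a peak (10.3%) were members: Sesn1, Sesn2 and Fnip2. Sesn1, a sestrin that restrains mTORC1, was among the strong regions of the set with 158 and 258 in control MEFs and 113 and 187 after starvation. Sesn2 was near 10 throughout, at 9.03 and 11.9 against 12.4 and 6.59.

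Signalling receptors and their pathways were represented by regions of moderate strength. Of TGF-β and BMP genes, 6 of 19 had one, led by the receptors Acvr2a (51.4 and 105 in control, 77.3 and 55.5 in starved MEFs) and Acvr1 (30.3 and 63.2 against 24.8 and 45.4). Of receptor tyrosine kinases and substrates, 6 of 22 did, among them Ephb2 (55.7 and 31.6 against 126 and 23.4), Met (10.1 and 52.9 against 14.9 and 8.10) and Irs1 (5.97 and 30.6 against 32.2 and 6.96), all with wide spread between replicates. The region of Ephb2 could not be placed on a coding transcript, and the strongest peaks of the 4 lists shared only 20 bp there. In Met and in Irs1 these peaks had no base in common, so the values come from different places in a merged stretch. In the Hippo list 7 of 20 genes held 9 regions, and besides Lats2 the atypical cadherins Dchs1 (geometric mean 32.6), Fat4 (27.0) and Fat1 (8.95) were methylated in their long coding exons. Fat1 was one of the steady ones, at 7.47 and 10.3 against 8.97 and 9.33 over an exon of 3274 nt that the region filled.

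Of Wnt genes 3 of 20 had a region: Lrp6, a co-receptor, with 11.2 and 132 in control MEFs and 86.5 and 54.7 after starvation, Apc and Axin1. In the Notch list only Maml2, a coactivator, did (1 of 14). Immediate early and short-lived regulators had 6 of 32, all with their centre in the 3′ UTR. These were Klf9 (58.8 and 44.1 against 23.4 and 57.1), Klf2, Ier2, Klf4, Ier5 and Mafk, with geometric means from 43.2 down to 10.5.

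Genes of the ribosome and the respiratory chain were absent from the set. None of 47 cytoplasmic ribosomal protein genes had an unordered region, and 38 of them had no peak in any list, 7 only regions in 1 to 3 lists, and Rps24 and Rps6 ordered regions. Of 41 nuclear-encoded respiratory chain genes none had a constitutive region, 22 had peaks in 1 to 3 lists and 19 had none. Counted over genes with a peak, as for the other lists, these were 0 of 9 and 0 of 22. Such numbers are small beside the background of 12.3%, and the difference was not tested. Zinc finger genes named Zfp were close to the background, with 35 of 269 (13.0%) and 39 regions, led by Zfp296 (259 and 223 in control, 399 and 127 in starved MEFs), Zfp46 and Zfp286.

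Markers of fibroblasts were present in part. Of 18 genes of fibroblast identity and matrix with a peak, 7 had unordered regions. Pdgfra, the platelet-derived growth factor receptor that marks mesenchymal fibroblasts, had 2 that touch on its mRNA, one in the 3′ UTR with 42.6 and 18.8 in control MEFs and 38.3 and 24.2 after starvation and one on a whole exon of coding sequence with 37.0 and 52.6 against 78.2 and 4.87. Fbn2, a fibrillin of microfibrils, gave 22.2 and 50.85 against 24.05 and 3.23 at its stop codon, and Pdgfrb, the sister receptor of Pdgfra, 34.8 and 10.05 against 17.2 and 9.72 in its 3′ UTR. Prrx1, a mesenchymal transcription factor, gave 3.45 and 11.5 against 9.17 and 24.3, and collagen genes were weak, Col6a2 with geometric means of 7.51 and 6.29, Col6a3 with 4.62 and Col5a2 with 4.10. The defining markers Col1a1, Dcn, Lum and Vim had no peak, while 8 of 12 fibroblast markers had one in some list. A peak shows that a transcript was present and is no measure of its level. Among markers of other cell types a peak was listed for 3 of 8 epithelial, 2 of 6 endothelial, 1 of 8 blood and immune, 2 of 6 skeletal muscle and 4 of 6 neural genes, and 1 of these, Sox2, held an unordered region (50.1 and 15.96 against 37.0 and 54.0). In such bulk cultures fewer cells of a type and less RNA per cell cannot be told apart.

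The strength of evidence differed across the set. The deposited score, which stops at 3100, was at that limit in all 4 lists in 214 regions (16.04%) and in none in 331 (24.8%). A false discovery rate under 20%, reading the deposited column as percent, was given in all 4 lists for 568 regions (42.6%), so for most regions at least 1 of the 4 peaks had a higher rate. With peaks under 20% alone, the same rule gave 571 regions in 543 genes.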

How the data were processed

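MeRIP-seq was run on control and starved MEFs, with an IP and an input library for each of 2 replicates per group. Per the paper's methods and the labels, adapters were removed by the authors (Cutadapt) before alignment by HISAT2 2.0.4 to the mm10 genome. Peaks of each IP library were called over its input with MACS2, and those over mRNA exons were kept. The column names of the lists are those of an earlier MACS series, so the version is uncertain. The authors deposited 1 peak list per IP library, and replicates were not pooled. Each list gives a fold enrichment (ratio of IP over local input), a score (10 times the negative log10 of the p-value, which stops at 3100), a false discovery rate in percent and a peak length, all as deposited by the authors. The header gives the false discovery rate no unit, and it was read as percent, an assumption on which counts at 20% rest. Fold enrichment was not scaled between libraries. No read counts or depths are given, so intervals are Wilson intervals on numbers of regions or peaks only. A deposited table of the authors' own comparison (fold change, p-value and direction) was not used. No column of per-sample values was left unmapped (0).

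Peaks were merged in Python 3.11.15 (numpy 2.4.6, pandas 2.3.3) and placed on GENCODE M21 transcripts. Of 38705 peaks, 37058 were placed on the gene the authors assigned, 690 on another gene and 957 not at all, and older gene names were replaced in 1284 entries. Sequence came from RefSeq GRCm38.p6 through samtools 1.23.1. Copies were searched with blastn 2.17.0 using the central 200 bp of each region. Shares were compared over libraries with exact permutation tests (scipy 1.17.1), two-sided, and the steps were tested on simulated data. Figures were drawn with matplotlib 3.10.9.

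Genes were named by rule, namely the 12 highest geometric means, the 6 genes with most regions, the 6 smallest ratios of highest to lowest value at a geometric mean of at least 10, the 4 widest regions, the 4 largest ratios, the 3 regions on each side of the threshold, and up to 4 regions per gene list by geometric mean. Alkbh5, Mdm2, Fat1, Prrx1, Sesn2, the collagen genes, the further immediate early genes and the coding region of Foxo3 were named after their values were seen. The regions, lists and tests were chosen with earlier results of these data known. Alternatives were another overlap, stricter peaks, equal list lengths, other region values, other windows, a replicate block, each library left out and, added after seeing the data, regions with another copy left out. A result that needs a withheld item is not reported here.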

Additional observations from a re-analysis of the deposited data

How the results depend on the processing

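Over all results and alternatives, 21 values changed sign and 15 others moved beyond the spread between libraries or, for counts, by over 1.5 times. The other 116 kept their direction and their side of the threshold, but not always their size: the GGAC difference to ordered regions ran from 0.072 points at a fold of at least 4 to 3.67 under a false discovery rate of 20%, and the long exon difference from 0.0086 for exons of at least 1000 nt to 2.45 under that rate. No test could reach 0.05 in this design, so no call was gained or lost. With peaks under a false discovery rate of 20% alone the set fell to 571 regions in 543 genes, 22 of them with 2 or more regions, and the log2 width difference to regions in 1 to 3 lists was 0.78. The log2 width difference to ordered regions, near 0 throughout, changed sign to 0.0013 with an overlap of at least 100 bp, 0.0038 at a fold of at least 4, 0.0016 with lists of equal length and 0.0033 without regions that have another copy, an alternative chosen after seeing the data. The offset difference became -0.25 nt at a fold of at least 4, and the GGAC difference between starved and control -0.076 points with the fold of the widest peak. With 1 library left out, regions numbered 722 (without starved replicate 1) to 970, since the rule then compares 3 values, genes 687 to 906 and genes with several regions 29 to 61. The same omissions gave, for starved minus control, -1.08 to 2.12 points for GGAC, -1.09 to 1.69 for the stop codon and -1 to 8 nt for offset. For unordered minus ordered regions they gave -1.63 to 0.67 for GGAC, -2.45 to 1.40 for the stop codon, -0.43 without control replicate 1 and -1.67 to 2.29 over all for long exons, and -0.064 to 0.027 for log2 width. For unordered regions minus those in 1 to 3 lists they gave 1.87 to 3.31 for GGAC, -2.48 to 1.47 for the stop codon and 0.47 to 0.58 for log2 width. The causes of these changes were not tested.

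With a replicate block both starved minus control differences stayed at 0.84 points (exact p = 0.5, the smallest possible). The labels link control and starved replicates by number only. The correlation of replicate differences between control and starved libraries was -0.017 over 2257 constitutive regions. Regions are not independent replicates, so this value cannot show whether same-numbered libraries shared a culture, a day or a batch. Unknown depth limits what the absence of a peak in a list can show.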
